A study of Mus musculus with 24 samples.

Results

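Sry, the testis-determining gene of the Y chromosome, and 9 of its SOX relatives were followed through the supporting cells of the mouse fetal gonad. The set was chosen by name and holds Sry, the SoxE genes Sox8, Sox9 and Sox10, the SoxC genes Sox4, Sox11 and Sox12, and the SoxD genes Sox5, Sox6 and Sox13. All 10 of these symbols were found among the 32040 symbols of the tables, and all 10 were among the 16190 genes that passed the filter on low counts. The XX groups were pre-granulosa cells of the Tg(Enh8-mCherry) line and the XY groups were Sertoli cells of the SOX9-IRES-GFP line, each sorted by fluorescence from fetal gonads at 4 embryonic stages (E), namely E11.5, E12.5, then E13.5, and last E15.5. A combination of sex and stage makes a group, and the 8 groups each held 3 libraries of polyadenylated RNA, 24 in all. Sex, mouse line and fluorophore changed together, so every difference between XX and XY is a difference between both kinds of sorted library. The reporter that selected the XY cells sits in Sox9 itself, so the level of Sox9 in the XY libraries is in part a property of the sort. The sources used here do not define Enh8, and they do not say whether replicates came from separate litters, so p-values measure the spread between these samples, which may be technical.

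In the mouse, SRY acts for a short time in XY supporting cells and raises Sox9, and SOX9 then keeps itself on and drives Sertoli differentiation, with SOX8 and, when present, SOX10 able to act beside it. The SOX proteins share the HMG box, a DNA-binding domain. SoxC proteins are activators of progenitor cells in many tissues, and SoxD proteins lack an activation domain of their own and act with SoxE proteins, as they do in cartilage.

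Levels are given as the deposited TPM (a share of transcripts that is scaled for transcript length), and differences as log2 differences of fitted counts with their standard error. A gene was called where edgeR's quasi-likelihood test gave a Benjamini-Hochberg adjusted p under 0.05, taken over every gene tested. Library totals ran from 11275251 to 37256881 counts, and a count of 3, taken as the floor, was worth between 0.0774 and 0.26 CPM (counts scaled to library size). The sorted cells carried the markers their labels name: the summed TPM of 7 Sertoli markers was 456 to 10016 in XY and 29.5 to 125 in XX libraries, and that of 6 pre-granulosa markers was 176 to 1017 in XX and 1.13 to 32.0 in XY libraries. The XX E11.5 libraries also carried 7 erythroid markers at a summed 7403 to 62447 TPM, against 35.7 to 72.2 in XY E11.5, and 6 immune markers at 96.4 to 268 TPM, against 0.15 to 1.60. From E12.5 on the erythroid sums were 393 to 3402 TPM in XX and 34.4 to 235 in XY. The immune sums of those stages were 25.8 to 44.9 TPM in XX and 0.06 to 0.64 in XY. The part of such cells in the later differences between XX and XY was not tested. In bulk RNA, fewer cells of a type and less RNA per cell cannot be told apart.

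The family resemblance is visible in the coding sequence. The following stretches are 60 coding bases near the start of the HMG box, shown for Sry and for 1 or 2 genes of each subgroup to show how much of the box is shared across the subgroups. They are 5′ to 3′ on the coding strand, from the longest coding transcript of GENCODE M21 on the GRCm38 build, and capitals mark the 31 bases that are identical in all 5.
Sry: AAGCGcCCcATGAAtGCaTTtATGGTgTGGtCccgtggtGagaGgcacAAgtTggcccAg
Sox8: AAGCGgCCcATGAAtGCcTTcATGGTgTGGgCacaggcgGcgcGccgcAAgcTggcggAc
Sox4: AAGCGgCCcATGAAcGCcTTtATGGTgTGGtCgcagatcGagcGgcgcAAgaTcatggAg
Sox5: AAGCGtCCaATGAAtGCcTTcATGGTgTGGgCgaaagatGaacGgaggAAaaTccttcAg
Sox6: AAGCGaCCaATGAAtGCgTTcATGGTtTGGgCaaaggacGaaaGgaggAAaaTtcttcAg
All 5 lie on the minus strand. The Sry stretch is chrY:2663584-2663643, in the gene's only exon, and the Sox8 stretch is chr17:25570166-25570225, in exon 1 of 3. The Sox4 stretch is chr13:28952785-28952844, in its only exon. The Sox5 stretch is chr6:143841217-143841276, in exon 13 of 15, and the Sox6 stretch is chr7:115489706-115489765, in exon 14 of 16. Over 210 coding bases of the box, genes of 1 subgroup were 82.4% to 90.5% identical, and Sry was 54.3% to 63.3% identical to the other 9. In the deposited counts, values that were not whole, which can arise when a read is divided between genes, occurred for Sox8 in 19 of 24 libraries, for Sox9 in 12, for Sox10 and Sox11 in 9 each, for Sox5 in 5, for Sox12 in 2 and for Sox4 in 1. Sry, Sox6 and Sox13 had whole counts in every library, and over all genes 17.5% of count values were not whole. The distance to the nearest whole count was at most 0.49, for Sox11, and at most 0.13 for Sox10. That distance does not measure how many reads were divided, or between which genes. In XY E11.5 replicate 1, Sox9 had 65610.97 and Sox10 had 338.03 counts, and their sum was whole (65949). The sum was also whole in XY E13.5 replicate 3 (44565) but not in XY E12.5 replicate 2 (46476.94). The part of reads divided between Sox9 and Sox10 in either level was not tested.

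Between XX and XY cells, 7 of the 10 genes were called at E11.5, beside 42% of all genes tested. A stage later 8 of 10 were called, beside 62.1%. All 10 were called at E13.5, beside 66.1%, and 8 of 10 by E15.5, beside 69.4%. With so many genes differing between the sorted populations, these counts are read for their direction and size only. At E11.5 all 7 called genes were higher in XY. Sox4 was the only one higher in XX at E12.5. In both later stages Sox4, Sox5 and Sox11 were higher in XX while 7 and 5 genes were higher in XY. The direction of Sry, a gene of the Y chromosome, and of Sox9, on which the XY cells were sorted, was set by the design. Both genes enter these counts and the medians that follow. The Sry call at E13.5 rested on 3, 2 and 6 counts in XY. The median difference (XX minus XY) over the 10 genes was -2.42 at E11.5, beside 0.02 over all genes. It was -2.52, -2.52 and -1.13 at the later stages, beside -0.01, 0.01 and 0.05, and with genes at the floor in 1 group set to their bound it was -1.86, -1.38 and -1.13. Within XX, 4 of 10 were called for the step to E12.5 (beside 34% of all genes), 1 in the next step (beside 31.7%) and 1 in the last (beside 25.6%). Within XY the counts were 8 (beside 51.9%), 2 (beside 16.6%) and 4 (beside 21.3%). Any change over the 4 stages was called for 7 genes in XX (beside 74%) and for 8 in XY (beside 70.3%), and the sex-by-stage interaction, which tests whether the difference of XX from XY varied with stage, for 5 (beside 70.1%).

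Sry (chrY:2662471-2663658) was high at 1 stage only among the 4 sampled. Its TPM in the 3 XY E11.5 libraries was 13.0, 9.56 and 11.03, from 338, 252 and 280 counts. In XY E12.5 it was 0.06, 0.44 and 0.69, from 1, 8 and 12 counts, and in XY E13.5 it was 0.22, 0.10 and 0.28, from 3, 2 and 6 counts. No count fell on Sry in any of the 3 XY E15.5 libraries or the 12 XX libraries. The E11.5 libraries thus stood apart from all others, while the ranges of XY E12.5 and E13.5 overlapped. From E11.5 to E12.5 Sry in XY fell by 4.58 ± 0.56 (SE) on the log2 scale (adjusted p = 3.12e-05). Against the XX libraries, at a count of 3 per library, XY was at least 39.4-fold higher at E11.5 and at least 2.30-fold higher at E12.5. Without XY E12.5 replicate 3 the second bound was 1.44-fold, and replicate 1, with 1 count, was under the floor itself. The later XY levels were so close to the floor that no fold is given. The differences of E13.5 from XX (adjusted p = 0.0195) and of E15.5 from E13.5 in XY (adjusted p = 0.0456) passed the threshold under 9 of 13 and 4 of 13 alternatives, with adjusted p from 0.00586 to 0.114 and from 0.0210 to 0.228. The first was lost without XX E13.5 replicate 2 or XY E13.5 replicate 3, and the second without any 1 of the 6 libraries compared. The interaction of Sry could not be estimated by edgeR's test (adjusted p = 1), since the XX side is 0 at every stage. Alternatives gave adjusted p from 2.54e-11 (limma on TPM) to 1.

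Sox9 (chr11:112782210-112787757) was the most abundant of the 10 genes in every XY group. Its TPM in XY was 692, 859 and 500 at E11.5, then 784, 692 and 637 at E12.5. The E13.5 libraries had 547, 518 and 558 TPM and those of E15.5 had 405, 414 and 419. In XX the 3 E11.5 libraries held 91.05, 27.7 and 28.6 TPM, and the other 9 ranged from 16.8 to 31.8. XX and XY did not overlap at any stage, and XX E11.5 replicate 1 stood above all other XX libraries. The XX minus XY difference was -3.76 ± 0.32 (SE) at first, then -5.02 ± 0.34, -4.28 ± 0.33 and, at E15.5, -4.44 ± 0.33, and it is given as a description, since the XY cells were sorted on this gene. In XX, Sox9 fell by 1.02 ± 0.29 from E11.5 to E12.5 (adjusted p = 0.0106). Without XX E11.5 replicate 1 the same step was -0.30 (adjusted p = 0.217), and over its 15 alternatives adjusted p ran from 0.00112 to 0.217. That library also had the highest summed Sertoli markers of its group, at 125 TPM against 76.5 and 89.8, and the part of this in the Sox9 value was not tested. In XY the mean was 705 ± 74.3 TPM (SD, n = 3) at E12.5 and 413 ± 7.29 at E15.5, and those libraries did not overlap. No step of Sox9 in XY was called, nor was any change over the 4 stages (adjusted p = 0.0908). With only the XY libraries in the fit, any change was called (adjusted p = 0.00232), and over all 21 alternatives adjusted p ran from 3.88e-06 to 0.196, passing the threshold also without XY E11.5 replicate 3 (adjusted p = 0.0492).

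Sox8 (chr17:25565893-25570686), which can stand in for Sox9 in the developing testis, rose in XY. Its TPM in XY was 4.68, 9.83 and 6.01 at E11.5 and 60.1, 49.6 and 43.7 in the E12.5 libraries. The E13.5 libraries had 68.7, 65.3 and 78.6, and those of E15.5 had 92.3, 82.1 and 86.0. The 4 XY groups did not overlap with one another. In XX all 12 libraries lay between 0.30 and 2.02 TPM, below every XY library. From E11.5 to E12.5 Sox8 in XY rose by 3.09 ± 0.22 (SE, adjusted p = 2.51e-10), and the 2 later steps, of 0.47 ± 0.20 and 0.25 ± 0.20, were not called (adjusted p = 0.113 and 0.406). Each of these was called when only the libraries compared were fitted (adjusted p = 0.0121 and 0.0126), with adjusted p from 0.0121 to 0.280 and from 0.0126 to 0.641 over 14 alternatives. In XX, Sox8 fell by 1.13 ± 0.39 from E13.5 to E15.5 (adjusted p = 0.0357). That call was kept in 6 of 14 alternatives (adjusted p from 0.00669 to 0.227) and was lost without any 1 of XX E13.5 replicates 1, 2 and 3 and XX E15.5 replicates 2 and 3. Between the sexes the difference (XX minus XY) went from -2.62 ± 0.26 at E11.5 through -5.09 ± 0.25 and -6.25 ± 0.28 to -7.64 ± 0.31 at E15.5, and the interaction was called (adjusted p = 2.15e-08).

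Sox10 (chr15:79154913-79164490), known best as a neural crest and glial factor, was measured in every XY library. In XY it had 5.77, 10.1 and 6.68 TPM at E11.5 and 10.7, 11.9 and 14.4 in the E12.5 libraries. The E13.5 libraries had 10.95, 15.3 and 18.7 TPM, and those of E15.5 had 6.58, 5.27 and 4.82. In XX it had 0.46, 0.17 and 1.2 TPM at E11.5, from 14, 7 and 24 counts, and no count in any of the 9 later libraries. XY was therefore at least 163-fold, 120-fold and 38.2-fold higher at the 3 later stages in order, and at E11.5 the XX minus XY difference was -3.79 ± 0.39 (SE, adjusted p = 1.58e-06). In XY, Sox10 fell by 1.45 ± 0.31 from E13.5 to E15.5 (adjusted p = 0.00322). Its rise of 0.94 ± 0.30 from E11.5 to E12.5 (adjusted p = 0.0165) was kept in 9 of 14 alternatives (adjusted p from 0.00954 to 0.115) and was lost without XY E11.5 replicate 1 or 3 or XY E12.5 replicate 2 or 3. The interaction was called (adjusted p = 1.51e-05). Some XY counts of Sox10 were not whole, as given above, and the part of reads divided with the far more abundant Sox9 was not tested.

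Markers of neural crest and glia were present beside Sox10. The summed TPM of 7 such markers was 30.3 to 32.2 in XY E11.5 and 41.9 to 59.7 in the later XY libraries. In XX it was 8.51 to 15.4 at E11.5 and 7.85 to 16.3 at E12.5, then 15.8 to 20.2, and 34.6 to 45.4 in XX E15.5, where Sox10 had no count. Of the 6 markers tested, 3 were called between XX and XY at each stage, of which 0, 0, 1 and 2 in stage order were higher in XX, a share of 3 in 6 beside the 42% to 69.4% of all genes. The neural crest factor gene Foxd3 averaged 0.18 TPM or less in every group and was at 0 in all libraries of XY E12.5. Tfap2b was at 0 in all libraries of XY E13.5 and E15.5. Erbb3, a receptor gene of Schwann cell precursors and other cells, had 2.48, 26.5, 29.9 and 10.2 TPM as XY means from E11.5 to E15.5 and 0.23 to 1.65 as XX means. The part of such cells in the Sox10 level was not tested. The highest Sox10 level in XX E11.5 was in replicate 3, which also had the highest erythroid (62447 TPM) and immune (268 TPM) marker sums of that group, and their part was not tested.

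**Figure D1:**
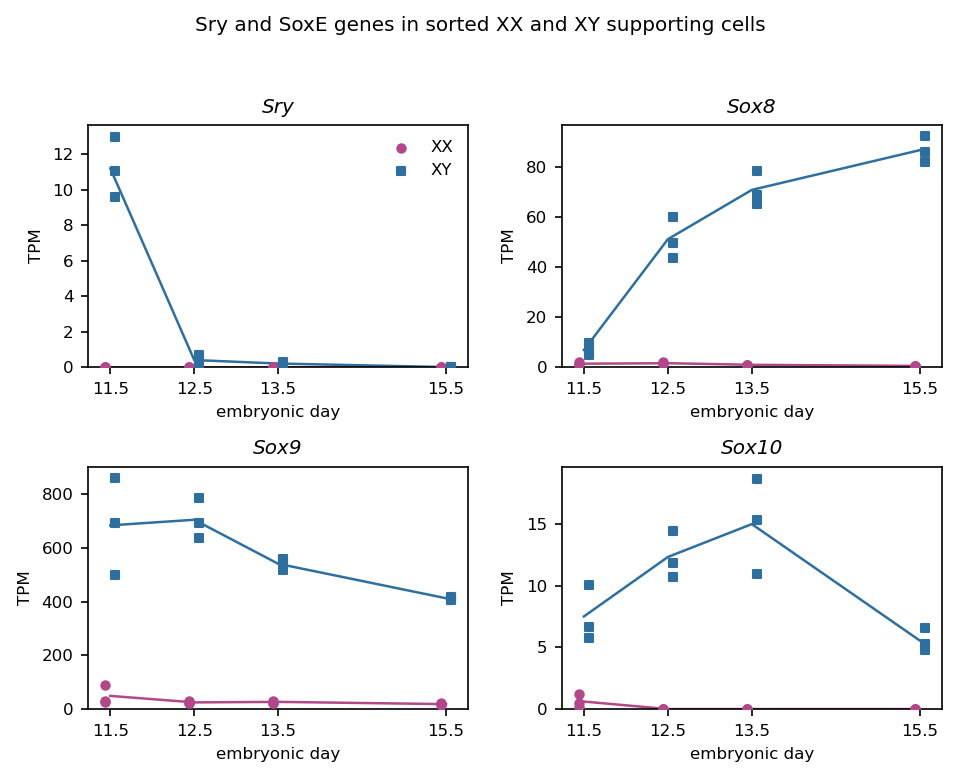
TPM of Sry, Sox8, Sox9 and Sox10 (vertical axes, starting at 0) against embryonic day, with 1 point per library (XX circles, XY squares) and lines through the group means. Sry is near 11.2 TPM in XY E11.5 and under 1 elsewhere, Sox8 climbs to a mean of 86.8 TPM in XY E15.5, and XX lies below XY at each stage for Sox8, Sox9 and Sox10.

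Within SoxE, Sox9 was the main gene in every group, and the share of Sox8 differed between stages. On the TPM scale the Sox9 to Sox8 ratio in XY was 106 ± 36.2 (SD, n = 3) at E11.5, then 13.9 ± 0.77 and 7.66 ± 0.49, and 4.77 ± 0.34 at E15.5, without overlap between stages. Sox8 made up 0.985% ± 0.278 of SoxE TPM in XY at E11.5 and 17.2% ± 1.02 at E15.5, and Sox10 never averaged more than 2.39%. In XX Sox9 supplied an average of 93.9% to 97.5% of the little SoxE present. SoxE genes together held 66.2% ± 7.32 of the TPM of all SOX genes in XY E11.5 and 76.3% to 77.5% in the later XY groups, against 17.2% ± 5.16 in XX E11.5 and 8.30% ± 0.866 in XX E15.5.

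SoxD genes parted in 2 ways. Sox6 and Sox13 were higher in XY at each stage, and Sox5 crossed over. Sox5 (chr6:143828425-144782287) in XY had 113, 96.0 and 78.75 TPM at E11.5 and 68.7, 58.6 and 54.2 at E12.5, then 30.2, 29.9 and 24.7 at E13.5 and lastly 6.51, 8.51 and 7.68 at E15.5. In XX it had 49.0, 27.9 and 41.95 TPM at E11.5 and 46.8, 48.8 and 60.4 at E12.5, then 40.0, 35.55 and 32.9 at E13.5 and lastly 41.8, 46.3 and 35.7 at E15.5. XY lay above XX at E11.5 and below it at E13.5 and E15.5, and at E12.5 the libraries overlapped. In XY, Sox5 fell at every step, by 0.52 ± 0.12 (SE, adjusted p = 0.00122), 0.95 ± 0.12 (adjusted p = 2.18e-05) and 1.97 ± 0.13 (adjusted p = 4.23e-09). The XX minus XY difference was -1.30 ± 0.13 at E11.5 (adjusted p = 5.15e-08) and 2.93 ± 0.14 at E15.5 (adjusted p = 1.13e-13), and the interaction had the smallest adjusted p of the 10 genes (1.53e-12).

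The middle of the Sox5 crossing was less firm. At E12.5 the difference of -0.32 ± 0.12 (adjusted p = 0.0310) was kept in 3 of 15 alternatives, with adjusted p from 0.0133 to 0.402, and was lost without XX E12.5 replicate 1 or 2 or any XY E12.5 library. At E13.5 the difference of 0.76 ± 0.12 (adjusted p = 1.70e-05) was kept in 12 of 15, and was 0.34 to 0.35 and not called in the 3 fits on TPM (highest adjusted p = 0.140). In XX, Sox5 rose by 0.46 ± 0.12 from E11.5 to E12.5 (adjusted p = 0.00724), a call kept in 10 of 15 alternatives (adjusted p from 0.00520 to 0.155) and lost without XX E12.5 replicate 3. From E12.5 to E13.5 in XX the counts gave 0.13 ± 0.12, not called (adjusted p = 0.452), whereas limma on TPM gave between -0.52 and -0.51, with adjusted p from 0.0283 to 0.0496.

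Counts and TPM of a gene differ by the transcript length used to scale it. Counts per unit of TPM, scaled for each library and set relative to the gene's mean over the 24 libraries, serve as an index of that length. For Sox5 the index was 0.86 ± 0.06 (SD, n = 3) in XX E11.5 and 0.93 ± 0.07 in XX E12.5, and 1.26 ± 0.11 and 1.27 ± 0.10 in XX E13.5 and E15.5. The 6 later XX libraries (1.15 to 1.36) lay above all 6 earlier ones (0.814 to 1.001), while the 12 XY libraries ranged from 0.78 to 1.04. For Sox6 the index spanned 2.44-fold over the 24 libraries, for Sox5 1.75-fold and for Sox8 1.61-fold. The Sox6 extremes, 0.70 and 1.72, were XX E13.5 replicates 1 and 2, at 5.41 and 2.86 TPM. The lowest Sox8 value, 0.70, was XX E15.5 replicate 2, from 9 counts. In XY the index ran from 0.78 to 1.06 for Sox6 and from 0.94 to 1.12 for Sox8. For Sox4, Sox9 and Sox11 the index spanned at most 1.01-fold. Over the 5900 genes that reached 10 TPM in all libraries, which leave out Sox5, Sox6, Sox8 and Sox11, the median span was 1.13-fold. The deposited tables give no values per isoform, and whether isoform use changed was not tested.

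Sox6 (chr7:115470872-116040776) in XY had 60.7, 51.0 and 45.3 TPM at E11.5, and the 9 later XY libraries ranged from 21.5 to 31.55. In XX it ranged from 6.11 to 8.09 TPM at E11.5 and from 2.19 to 6.28 later, so that XX and XY never overlapped. The XX minus XY difference was -2.66 ± 0.16 (SE), -2.53 ± 0.16, -2.36 ± 0.16 and -2.75 ± 0.17 from the first stage to the last, each called (highest adjusted p = 4.49e-11). An interaction was not called for it (adjusted p = 0.387). In XY, Sox6 fell by 0.48 ± 0.15 from E11.5 to E12.5 (adjusted p = 0.00887), and the later steps of -0.25 ± 0.15 and 0.11 ± 0.15 were not called (adjusted p = 0.279 and 0.649). The first step was called in all 15 alternatives (adjusted p from 8.96e-04 to 0.0333), and limma on log2 TPM gave a difference of -0.97 to -0.94. Over that step the summed TPM of 5 interstitial markers was 171 to 266 in XY E11.5 and 8.43 to 9.05 in XY E12.5, that of 5 steroidogenic markers 234.98 to 297 and then 45.7 to 66.8, and that of 4 mesonephric markers 30.3 to 36 and then 2.74 to 5.83. All 5 interstitial and all 4 mesonephric markers fell, as did 3 of the 5 steroidogenic ones. Of the other steroidogenic markers, 1 rose and 1 was not called. Over all genes tested, 51.9% were called in either direction. Cdh16 of the mesonephric list was at 0 in XY E12.5. The part of cells with these markers in the falls of Sry, Sox5, Sox6, Sox4 and Sox11 over this step in XY was not tested. The antisense transcript Sox6os had 7 to 34 counts in XY and 0 to 9 in XX libraries, and because the sources do not say whether counting used strand, reads of the pair cannot be told apart.

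Sox13 (chr1:133382300-133424459) was the least abundant SoxD gene in XX and in XY through E13.5. In XY it had 10.85, 11.9 and 8.94 TPM at E11.5 and between 10.7 and 12.4 at E12.5 and E13.5, then 7.49, 7.46 and 7.78 at E15.5. In XX the 12 libraries ranged from 1.44 to 2.98 TPM, below every XY library. Across stages XX minus XY was between -2.68 ± 0.17 (SE, E13.5) and -2.13 ± 0.17 (E15.5), and the interaction was not called (adjusted p = 0.120). In XY, Sox13 fell by 0.63 ± 0.15 from E13.5 to E15.5 (adjusted p = 0.00418). Its rise of 0.40 ± 0.15 from E11.5 to E12.5 (adjusted p = 0.0268) was kept in 4 of 15 alternatives (adjusted p from 0.0252 to 0.391), and was lost without XY E11.5 replicate 1 or 3 or XY E12.5 replicate 2 or 3.

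The SoxD total of XY libraries was mostly Sox5 at E11.5 and mostly Sox6 at E15.5. Sox5 made up 60.3% ± 1.05 (SD, n = 3) of SoxD TPM in XY E11.5 and 17.7% ± 1.09 in XY E15.5, while Sox6 made up 33.0% ± 0.980 and 64.5% ± 0.284. In XX Sox5 held an average of 81.0% to 89.5% at all 4 stages. The Sox5 to Sox6 ratio was 1.83 ± 0.0783 at E11.5 and 0.274 ± 0.0159 at E15.5 in XY, against 5.73 ± 1.04 and 13.2 ± 2.67 in XX. The SoxD total in XY was 159 ± 26.0 TPM at E11.5 and 42.7 ± 3.11 at E15.5, the latter within the range of the XX group means (42.6 to 59.5).

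**Figure D2:**
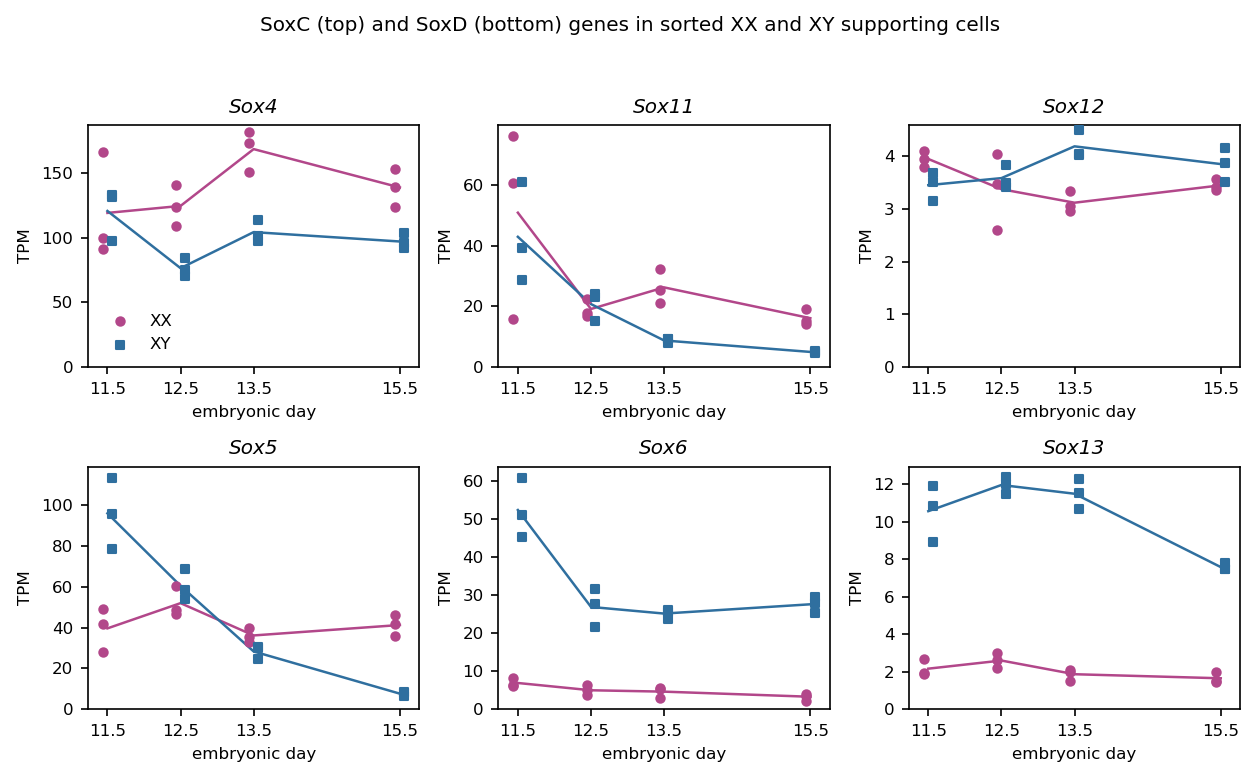
TPM of the SoxC genes (top) and SoxD genes (bottom), with vertical axes starting at 0, against embryonic day, with 1 point per library (XX circles, XY squares) and lines through group means. The Sox5 lines cross between E12.5 and E13.5, Sox6 and Sox13 stay higher in XY, and Sox4 and Sox11 are higher in XX at E13.5 and E15.5.

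Among the SoxC genes, Sox4 (chr13:28948919-28953699) was the most abundant of the 10 genes in every XX group. In XX it had 166, 99.7 and 91.4 TPM at E11.5 and between 109 and 181 later. In XY it had 131, 97.7 and 133 TPM at E11.5, then 70.5, 74.8 and 83.9 at E12.5 and between 91.7 and 114 at E13.5 and E15.5. XX and XY overlapped at E11.5 and at no later stage. The XX minus XY difference was 0.05 ± 0.16 (SE, adjusted p = 0.823) at E11.5. In stage order it was then 0.50 ± 0.16 (adjusted p = 0.0102), 0.75 ± 0.16 (adjusted p = 3.54e-04) and 0.57 ± 0.16 (adjusted p = 0.00335). The E11.5 value was of either sign across alternatives. The interstitial marker sums given with Sox5 were also higher in XX after E11.5, and their part in the Sox4 difference was not tested. In XX, Sox4 rose by 0.67 ± 0.16 from E12.5 to E13.5 (adjusted p = 0.00318), called in 13 of 15 alternatives (adjusted p from 3.23e-04 to 0.0854). In XY it fell by 0.45 ± 0.16 from E11.5 to E12.5 (adjusted p = 0.0223), also called in 13 of 15 (adjusted p from 0.00284 to 0.0539) and lost without XY E11.5 replicate 1 or XY E12.5 replicate 1. The interaction was just short of the threshold (adjusted p = 0.0506) and passed it in 16 of 32 alternatives, with adjusted p from 0.00117, without XX E11.5 replicate 1, to 0.144.

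Sox11 (chr12:27334268-27342718) overlapped between the sexes at E11.5 and E12.5 and was lower in XY at the later stages. In XY it had 39.3, 28.8 and 60.9 TPM at E11.5 and 15.35, 24.02 and 23.0 at E12.5, then 7.93, 9.15 and 9.28 at E13.5 and lastly 5.2, 5.09 and 4.72 at E15.5. In XX the E11.5 libraries were far apart, at 76.3, 15.85 and 60.7 TPM, and later ones ranged from 14.2 to 32.5. At E13.5 and E15.5 every XX library lay above every XY library. The XX minus XY difference was 0.30 ± 0.34 (SE, adjusted p = 0.513) and -0.32 ± 0.34 (adjusted p = 0.431) at the first 2 stages, then 1.64 ± 0.35 (adjusted p = 3.97e-04) and 1.75 ± 0.36 (adjusted p = 2.18e-04). The E11.5 value depended on single XX libraries: it was -0.08 without XX E11.5 replicate 1 (adjusted p = 0.882) and 0.70 without replicate 2 (adjusted p = 0.0282), and over 15 alternatives adjusted p ran from 0.0282 to 1. The interaction was called (adjusted p = 0.00171). In XX, Sox11 fell by 1.45 ± 0.35 from E11.5 to E12.5 (adjusted p = 0.00339), called in 14 of 15 alternatives (highest adjusted p = 0.0867). Replicates 1 and 3 of XX E11.5 were high, at 76.3 and 60.7 TPM, while replicate 2, at 15.85, lay below the lowest XX E12.5 library (16.96). The fall was 1.86 without replicate 2 of XX E11.5, 1.09 without replicate 1 and 1.29 without replicate 3. Replicates 1 and 3 also had lower pre-granulosa marker sums (216 and 176 TPM against 591 in replicate 2) and higher erythroid sums (26113 and 62447 against 7403). Their interstitial sums were 163 and 209.8 TPM against 91.6. The part of these markers in the level of Sox11 was not tested.

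Any change of Sox11 over the 4 XY stages was called (adjusted p = 1.89e-06), but its single steps were weaker. From E11.5 to E12.5 it fell by 0.83 ± 0.34 (SE, adjusted p = 0.0477), called in 8 of 15 alternatives (adjusted p from 0.0164 to 0.196) and lost without XY E11.5 replicate 1 or 3 or XY E12.5 replicate 1 or 3. XY E11.5 replicate 3, with the highest Sox11 (60.9 TPM), also had the highest interstitial marker sum of its group (266 TPM), and the part of such cells was not tested. From E12.5 to E13.5 it fell by 1.27 ± 0.35 (adjusted p = 0.0160), called in 9 of 15 (adjusted p from 0.00176 to 0.0890) and lost without XY E12.5 replicate 2 or 3 or any 1 of the XY E13.5 libraries. The ratio of Sox4 to Sox11 TPM in XY was 2.97 ± 0.690 (SD, n = 3) at E11.5 and 19.4 ± 0.958 at E15.5, and in XX it was 3.32 ± 2.59 and 8.65 ± 0.611. At XX E11.5 the libraries ran from 1.51 to 6.29, and without replicate 2 the mean was 1.84.

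Sox12 (chr2:152393611-152398046) was the flattest of the 10 genes, with group means from 3.12 to 4.19 TPM. The XX libraries ranged from 2.60 to 4.10 TPM and the XY libraries from 3.15 to 4.50. Its only called difference between the sexes was -0.39 ± 0.14 (SE, adjusted p = 0.0191) at E13.5, where the XX libraries (2.96 to 3.34 TPM) lay below the XY libraries (4.03 to 4.50). That call was kept in 10 of 15 alternatives (adjusted p from 0.0178 to 0.173), and lost without XX E13.5 replicate 1 or 3 or XY E13.5 replicate 1 or 2. Any change over stages in XY (adjusted p = 0.0306) was kept in 3 of 21 alternatives (adjusted p from 0.0224 to 0.397) and lost without any 1 of the 12 XY libraries. The interaction (adjusted p = 0.0201) was kept in 22 of 32, with adjusted p from 0.00939 to 0.106, and was lost without replicate 2 or 3 of XX E11.5, replicate 3 of XY E11.5, XY E12.5 replicate 1 or XY E13.5 replicate 1 or 2.

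**Figure D3:**
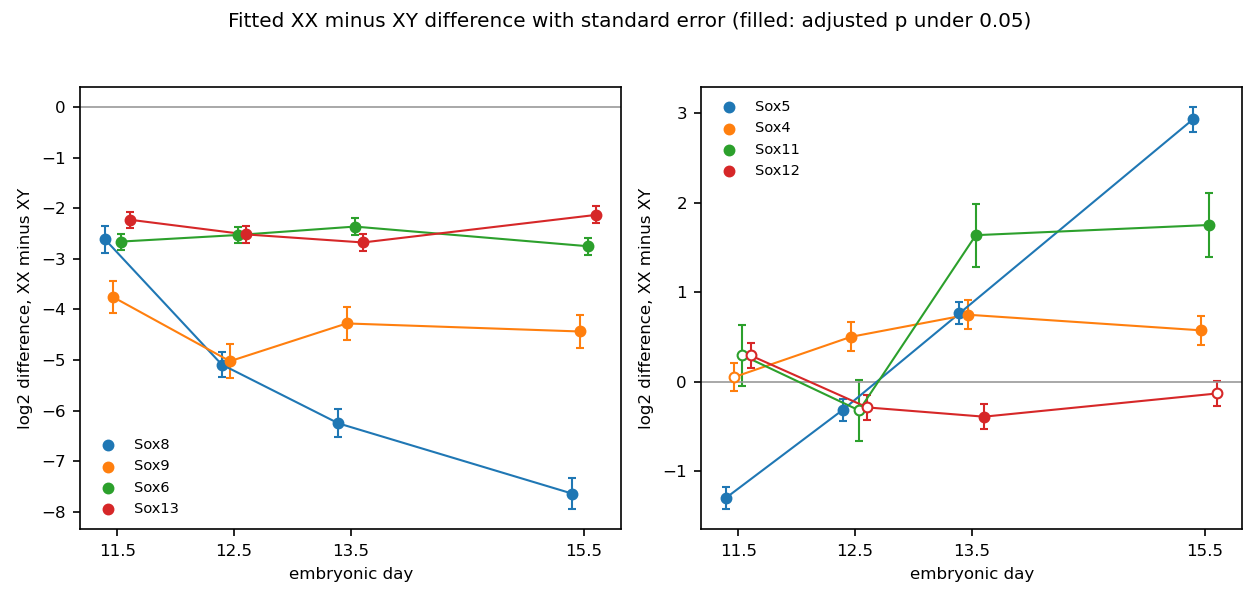
Log2 difference of XX minus XY (vertical axes, each with its own scale) against embryonic day for 8 of the 10 genes, with the standard error of the fit and filled points where the adjusted p was under 0.05. Sry and Sox10 are left out because no XX library has a count of Sry and none from E12.5 on has one of Sox10; Sox8 reaches -7.64 at E15.5, Sox6 and Sox13 stay between -2.75 and -2.13, and Sox5 runs from -1.30 to 2.93.

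**Figure D4:**
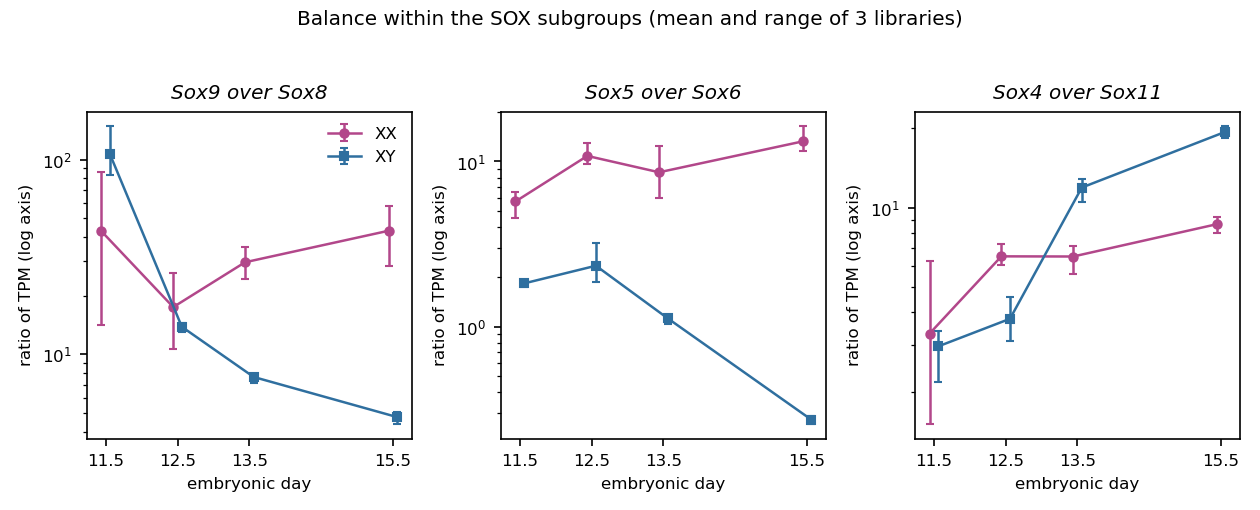
Ratio of TPM between genes of 1 subgroup (log axes) against embryonic day, with the mean of 3 libraries as points and their range as bars (XX circles, XY squares). In XY the Sox9 to Sox8 ratio goes from 106 to 4.77, the Sox5 to Sox6 ratio from 1.83 to 0.274 and the Sox4 to Sox11 ratio from 2.97 to 19.4.

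Genes around SRY and SOX9 were taken from lists. Of 17 genes known as regulators of Sry, 16 were tested, and between XX and XY 10, 11, 12 and 13 were called at the 4 stages in order, with 5 higher in XX at each stage except E12.5, where 6 were. These counts stand beside the 42%, 62.1%, 66.1% and 69.4% of all genes tested that were called, and they are shown for the values of the genes rather than for the count. Their median difference was -0.07, -0.08, -0.27 and -0.38, beside 0.02, -0.01, 0.01 and 0.05 over all genes. Gadd45g, a signalling gene that acts upstream of Sry through a MAP kinase cascade, had 610.5 TPM in XY E11.5 and 1113 in XX E11.5, a difference of 0.93 (adjusted p = 2.39e-04). Nr5a1, the gene of steroidogenic factor 1, had 309.8 and 118 TPM in the same groups, with a difference of -1.32 (adjusted p = 3.47e-06). Wt1 had 546 and 370 TPM there, with a difference of -0.48 (adjusted p = 0.00268). The difference for Gata4 at E11.5, -0.39, was not called (adjusted p = 0.154), with 559.7 TPM in XY and 444 in XX. Lhx9 was higher in XX at every stage, at 106 TPM in XX and 40.0 in XY at E11.5 and at 158 and 1.36 at E12.5.

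Of 12 Sertoli genes downstream of SRY or SOX9, 11 were called at E11.5 and 12 at each later stage, all of them higher in XY, where 42% of all genes were called at the first stage and 62.1% to 69.4% after it. The median difference was -3.05, -6.21, -6.89 and -8.004, against 0.02, -0.01, 0.01 and 0.05 over all genes. Amh, Ptgds, Dhh, Dmrt1, Cst9 and Aard of this list are also among the Sertoli markers given above. The list is therefore not separate from the markers of the sorted cells. The growth factor gene Fgf9, which supports Sox9 in XY gonads, had 83.3, 47.7, 17.4 and 5.87 TPM in XY from E11.5 to E15.5 and 0.92 to 2.29 in XX. Amh, the anti-Müllerian hormone gene, a direct target of SOX9, rose from 26.9 TPM in XY E11.5 to 3418 in XY E12.5. Ptgds, the prostaglandin D synthase gene, rose from 60.4 to 1297 TPM over the same interval, and Dhh, a hedgehog ligand gene, from 54.5 to 799. Vnn1, a pantetheinase gene, was the 1 gene not called at E11.5 (9.90 TPM in XY and 9.29 in XX, adjusted p = 0.867).

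Of 11 cartilage genes that the trio of SOX9, SOX5 and SOX6 activates in chondrocytes, 9 were tested. In stage order 3, 6, 7 and 5 were called, where 42%, 62.1%, 66.1% and 69.4% of all genes tested were. All 3 and all 6 of the first stages were higher in XY, as were 5 of the 7 and 4 of the 5 of the last. The median difference was -0.84, -2.70, -3.14 and -1.55 (over all genes 0.02, -0.01, 0.01 and 0.05), and the last was 0 with genes at the floor set to their bound. Col9a3 had 59.5, 1116, 1008 and 479 TPM in XY and 2.22 to 2.93 in XX. Col9a2 had 43.0, 309.7, 199 and 54.5 TPM in XY and 3.45 to 13.0 in XX. Col2a1, the main cartilage collagen, had 9.34, 149, 40.3 and 2.28 TPM in XY and 0.06 to 5.13 in XX. Acan, the aggrecan gene of cartilage matrix, had 1.35 to 2.90 TPM as group means in both sexes, and was called at E13.5 only, higher in XX by 0.62 (adjusted p = 0.0282). Hapln1, a link protein gene of the same matrix, was higher in XX at E13.5 and E15.5, by 0.86 and 3.18 (adjusted p = 0.0434 and 7.09e-07).

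Of 7 ovarian genes that act against Sox9, 7, 6, 7 and 7 were called at the 4 stages, with 5 higher in XX at E11.5 and 6 at each later stage, beside 42%, 62.1%, 66.1% and 69.4% of all genes called in either direction. The median difference was 1.85, 3.86, 4.49 and 5.69, where that of all genes lay between -0.01 and 0.05. Lower in XX were 2 genes at E11.5, 0 at E12.5 and 1 at each later stage. Foxl2, Wnt4, Rspo1 and Runx1 are also among the pre-granulosa markers given above, so this list is not separate from those markers. All 6 of those markers were higher in XX at E11.5. The genes lower in XX at that stage are thus among the rest of the list, Ctnnb1 and the estrogen receptor genes Esr1 and Esr2. Wnt4, a signal of the ovarian programme, had 23.7 to 30.9 TPM in XX and 5.32 at E11.5 to 0.28 at E15.5 in XY. Rspo1, which strengthens that signal, had 25.7 to 34.8 TPM in XX and 3.14 at E11.5 to 0.19 at E15.5 in XY. Foxl2, which represses Sox9 in the ovary, had 6.50 to 17.7 TPM in XX and 0.06 or less as XY means. Runx1 had 24.8 TPM in XX E11.5 and 16.3 in XY E11.5, and 21.7 and 0.71 at E15.5. Ctnnb1, the beta-catenin gene, differed by -0.70 to 0.29, and its sign changed between stages.

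**Figure D5:**
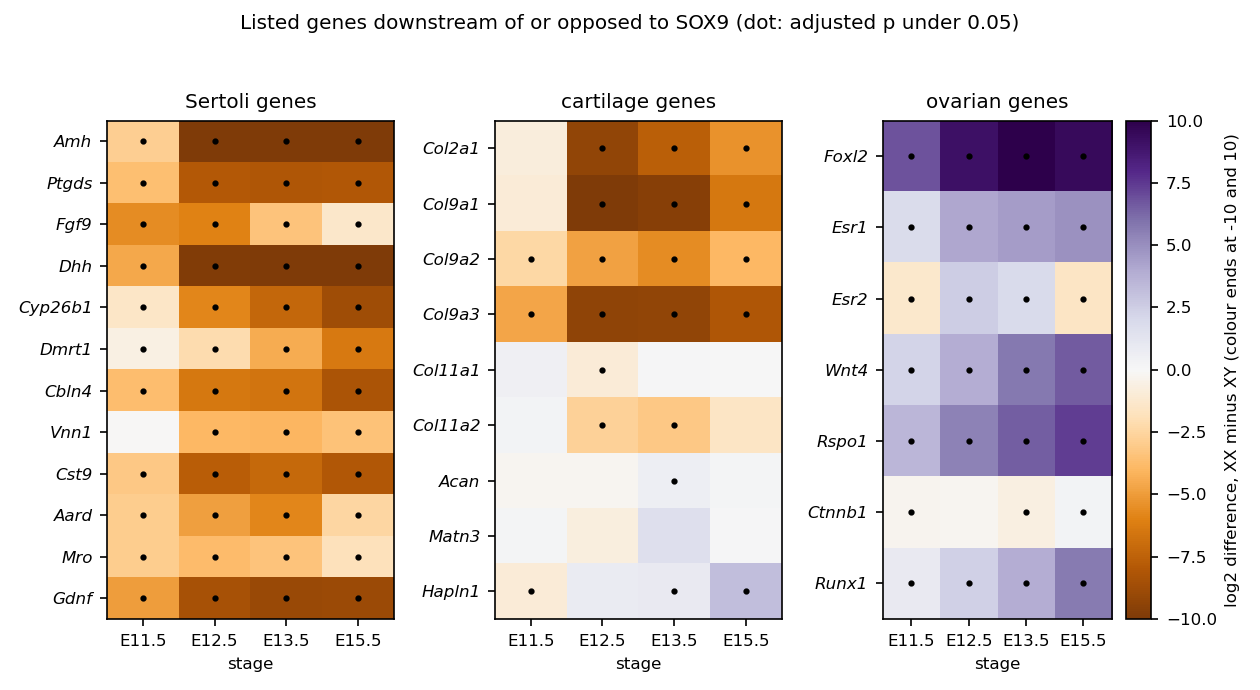
Log2 difference of XX minus XY (colour, ending at -10 and 10) for each tested gene of 3 lists (rows) at 4 stages (columns), with a dot where the adjusted p was under 0.05. At least 11 of 12 Sertoli genes are higher in XY at each stage, Col2a1 and the Col9 genes are higher in XY from E12.5 on, and 6 of 7 ovarian genes are higher in XX at E15.5 or E12.5.

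Of 10 other SOX genes on a list, 3 passed the filter. Sox15, which encodes a protein close to the SoxB group, had 6.47, 8.54 and 6.52 TPM in XY E11.5 and 27.6, 18.0 and 16.3 in XY E12.5, then 9.32 to 12.9 at E13.5 and 3.81 to 5.29 at E15.5. In XX it had 0 to 1.64 TPM through E13.5 and 3.17 to 3.75 at E15.5, and was called between the sexes at the first 3 stages only. Sox18, a gene of endothelial cells, had 0.05 to 0.06 TPM in XY E11.5 and 1.40 to 2.20 in XY E15.5. In XX it had 0.08 to 0.34 TPM at E11.5 and 0 to 0.06 at E15.5, where XY was at least 7.75-fold higher. The summed TPM of 6 endothelial markers was 6.06 to 9.93 in XY E11.5 and 10.96 to 12.2 in XY E15.5. It was 8.04 to 14.4 in XX E11.5 and 11.35 to 14.05 in XX E15.5. The part of such cells in the Sox18 level was not tested. Sox30 was not called between the sexes at any stage.

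For each of the 10 genes, the gene whose log2(CPM + 1) followed it most closely over the 24 libraries was looked up by Pearson's r, as a description: the libraries share 8 groups, and many genes separate these groups the same way. Sry was nearest to Zpld1 (r = 0.990), Sox8 to Sh3gl2 (r = 0.989), Sox9 to Fam83f (r = 0.989) and Sox10 to Plod2 (r = 0.995). Sox13 was nearest to Nudt19 (r = 0.991) and Sox6 to St3gal4 (r = 0.979). Sox5 was nearest to Pcmtd1 (r = 0.920), Sox11 to Zfp422 (r = 0.928), Sox4 to Rbm7 (r = 0.867) and Sox12 to Unc119 (r = 0.785). Sox13 was itself the third nearest gene to Sox10 (r = 0.983). On log2(TPM + 1), Zfp422, Rbm7 and St3gal4 were not among the 3 nearest to Sox11, Sox4 and Sox6, nor was Sox13 to Sox10. The other nearest genes named here were.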

How the data were processed

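RNA-seq of 24 libraries was analysed: XX pre-granulosa and XY Sertoli cells at 4 stages, 3 libraries in each of 8 groups. The deposited estimated counts and TPM per gene were made by the authors on the mm10 build, per the submitters' processing notes; the aligner, the counter and the use of strand are not given in the sources used here. Of the deposited count values, 17.5% were not whole, and counts were rounded. For 1 library, XX E13.5 replicate 1, a label field gives E12.5 while its title gives E13.5, and it was kept at E13.5.

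The test on counts was that of edgeR 4.0.16, run under R 4.3.3 (filterByExpr, TMM, robust quasi-likelihood fit of 8 group means, 16 residual degrees of freedom), with Benjamini-Hochberg adjustment over 16190 genes and a threshold of 0.05. The common biological coefficient of variation was 17.4%. The floor of 3 counts equals 0.0774 to 0.26 CPM, depending on the library. Pairs of replicates differed by more than sampling noise (chi-square per degree of freedom 3.73 to 112), so none was counted as 1 library. On simulated counts for XX minus XY at E12.5 over 15581 genes, 92% of genes changed by 1 on the log2 scale and 100% of those changed by 2 were called. Alternatives were DESeq2 1.42.0, its size factors within edgeR, limma 3.58.1 on log2(TPM + 0.1) and log2(TPM + 1), other filters, fits of only the libraries compared, a replicate block, and leaving out each library in turn.

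The 10 genes were named by symbol, and other genes came from lists; the members and lists were chosen with earlier results of these data known. The genes most like each member were the first by Pearson's r of log2(CPM + 1). Gene positions are RefSeq's on GRCm38.p6 and box sequences are from GENCODE M21 transcripts; a protein table was not used here.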

Additional observations from a re-analysis of the deposited data

Results flagged for a closer look

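The sex-by-stage interaction of edgeR's quasi-likelihood test was called for 5 of the 10 genes, beside 70.1% of all genes tested. For these 5 the XX minus XY difference itself differed between stages. Sox5 had an adjusted p of 1.53e-12, with a difference of -1.30 at E11.5 and 2.93 at E15.5. Sox8 had 2.15e-08, with -2.62 and -7.64 at the same stages. Sox10 had 1.51e-05, with 7, 14 and 24 counts in the XX E11.5 libraries and none in later XX libraries. Sox11 had 0.00171, with 0.30 at E11.5 and 1.75 at E15.5. Sox12 had 0.0201, with 0.29 at E11.5 and -0.39 at E13.5, and 10 of its 32 alternatives did not pass the threshold (adjusted p from 0.00939 to 0.106).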

How the results depend on the processing

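Of 123 tested results on single genes, 53 were called under the reported setting and every alternative, 20 were called but not under every alternative, 25 were not called but were under at least 1 alternative, and 25 were not called under any. The counts of members below stand beside those of all genes tested under the same setting. With at least 10 counts in every library, which leaves 7 of the 10 genes, 4, 4 and 6 were called between XX and XY at E11.5, E12.5 and E13.5, 5 for any change in XY, 4 for XY E12.5 minus E11.5, 2 for XY E15.5 minus E13.5 and 0 for XX E15.5 minus E13.5. In the same order, 5174, 7284, 8067, 8380, 5901, 2869 and 3601 of 11679 genes were called. DESeq2 called 8 interactions, beside 11822 of 16167 genes. For XX E12.5 minus E11.5, limma on TPM called 2 under each of its 3 settings and the fit of only the libraries compared called 0. Of all genes, limma called 5080 and 5326 of 15147 with a filter and 5691 of 24356 without. The fit of only the libraries compared called 1176 of 14709. For XX E13.5 minus E12.5, limma with a filter and the fit of only the libraries compared each called 2. Beside these, 5148 and 5272 of 15147 genes and 6462 of 14467 genes were called. For XX E15.5 minus E13.5, 0 were called by limma on log2(TPM + 1) with or without a filter and by edgeR with no filter, and 4 with only the libraries compared. In that order, 3695 of 15147, 3549 of 24356, 3541 of 24301 and 5581 of 13921 genes were called. For XY E13.5 minus E12.5, limma without a filter called 1 and the fit of only the libraries compared 5. Beside these, 1942 of 24356 and 4317 of 13849 genes were called. Leaving out 1 library gave 1 to 2 calls for XX E13.5 minus E12.5, 0 to 1 for XX E15.5 minus E13.5, 4 to 8 for XY E12.5 minus E11.5 (4 without XY E11.5 replicate 1, 5 without XY E11.5 replicate 3 or XY E12.5 replicate 3) and 1 to 2 for XY E13.5 minus E12.5. Over all genes these fits called 3777 to 4556, 2540 to 3919, 7030 to 7774 and 1503 to 2367 in the same order.

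Changes of sign were as follows, and the cause was not tested. On TPM with limma, Sox12 XX E13.5 minus E12.5 was -0.0901, -0.0744 and -0.0744, Sox4 XX E12.5 minus E11.5 was 0.11 in all 3 settings (0.017 in edgeR with no filter), Sox4 XX minus XY at E11.5 was -0.0563, -0.0556 and -0.0556, and Sox5 XX E13.5 minus E12.5 was -0.52, -0.51 and -0.51. Leaving out 1 library gave Sox12 XX E13.5 minus E12.5 -0.0405 to 0.288, Sox4 XX E12.5 minus E11.5 -0.16 to 0.25 (0.05 without XX E12.5 replicate 2), Sox4 XX minus XY at E11.5 -0.22 to 0.20 (-0.09 without XY E11.5 replicate 2) and Sox11 XX minus XY at E11.5 -0.0795 to 0.697. It also gave -0.187 to 0.0133 for Sox13 XX E15.5 minus E13.5, -0.184 to 0.00357 for Sox6 XX E13.5 minus E12.5 and -0.0324 to 0.362 for Sox9 XY E12.5 minus E11.5.

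Over all genes, the fit of only the libraries compared called 2718 at XX minus XY E11.5, 1176 at XX E12.5 minus E11.5, 4317 at XY E13.5 minus E12.5 and 6111 at XY E15.5 minus E13.5. XX E15.5 minus E13.5 gave 2726 without XX E13.5 replicate 1 and 2540 without XX E15.5 replicate 3, and XY E13.5 minus E12.5 gave 1503, 1626 and 1606 without XY E12.5 replicate 2 or XY E13.5 replicate 2 or 3. Samples of different groups with the same replicate number had a mean correlation of 0.0042 (range -0.193 to 0.351). With different numbers the mean was -0.0024 (range -0.340 to 0.272), and 11 of 24 samples correlated best with their own number. These values showed no clear pairing by replicate number, and whether the numbers pair some of the samples was not settled. With the replicate block, 7 genes were called for XY E12.5 minus E11.5, where Sox11 was -0.78 (adjusted p = 0.0573), and 3 for XY E15.5 minus E13.5, where Sry had an adjusted p of 0.0693, and the other 11 counts were as reported. Groups of 3 libraries and Sry counts of 12 or fewer after E11.5 limit the precision. Leaving out single libraries for the Sry bound at E12.5 and for the Sox4 to Sox11 ratio of XX E11.5 was chosen after seeing the data.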
